A study of Mus musculus with 8 samples.

Results

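The 10 genes described here mark position along the body and the limb: the homeobox genes Hoxa9, Hoxa10, Hoxa11, Hoxc9, Hoxc10, Hoxd9 and Hoxd10, and the limb transcription factor genes Tbx4, Pitx1 and Prrx1. They were taken by symbol, as a list of developmental genes known for the hindlimb and the posterior trunk, and all 10 of 10 were among the 32285 genes listed. Cells of the periosteum, the membrane on the outer surface of bone, had been released by digesting whole bones with collagenase I and dispase II, from the left femurs and tibias of 16 weeks old male C57BL/6J mice on normal diet (ND) or high-fat diet (HFD), with 4 labelled samples a diet, and measured by droplet-based 3′ single-cell RNA sequencing. The samples of each diet were held in 1 matrix with no mark that assigns a cell to a mouse. Each diet was therefore 1 library, no test between diets could be made, and every interval below is a 95% interval for counting error only. PCR and the pooling of mice are not covered by it.

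Hox genes lie in 4 clusters (Hoxa to Hoxd), and the paralogue number follows the order in which the genes are switched on from head to tail and from the base to the tip of the limb. Groups 9, 10 and 11 are known for patterning the lower trunk and the proximal and middle limb, and adult mesenchymal cells keep much of the Hox pattern of the site they came from. Pitx1 and its target Tbx4 are transcription factor genes of the hindlimb bud, whereas the related Tbx5 acts in the forelimb. Prrx1 is a homeobox gene of limb bud mesenchyme in both limb pairs and of skeletal progenitors. Hoxa9 also acts in blood stem and progenitor cells, where its level drops as cells mature.

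Apart from Tbx4, which encodes a T-box protein, the members encode homeodomain proteins. The 30 bases that encode the core of the DNA-recognition helix are shown for 7 of them, because they show how closely the Hox members are related and where the limb factors Pitx1 and Prrx1 part from them. They were read from GENCODE vM21 transcripts (GRCm38), each lies within 1 coding exon, and capitals mark bases that differ from Hoxc10, the Hox member with the highest stromal-like level:
Hoxa10 (chr6:52232566-52232595, minus strand): atctggtttcaGaatcgcagGatgaaactG
Hoxa11 (chr6:52243414-52243443, minus strand): atctggtttcaGaaCAgAagaatgaaGGAA
Hoxc9 (chr15:102984068-102984097, plus strand): atctggtttcaGaaCcgGagGatgaaGAtG
Hoxc10 (chr15:102970986-102971015, plus strand): atctggtttcaaaatcgcagaatgaaactc
Hoxd10 (chr2:74694279-74694308, plus strand): atTtggtttcaaaaCcgcCgaatgaaactc
Pitx1 (chr13:55826582-55826611, minus strand): GtctggttCAaGaaCcgGCgaGCCaaaTGG
Prrx1 (chr1:163257913-163257942, minus strand): GtGtggtttcaGaaCcgAagaGCCaaGTtc

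Hoxa10 and Hoxd10, of the same paralogue group, each differed from Hoxc10 at 3 bases of this stretch, Hoxc9 at 7, Hoxa11 at 8, Prrx1 at 10 and Pitx1 at 13. Over the whole homeobox of 180 bases, Hoxd10 and Hoxa10 were 82.8% and 80.6% identical to Hoxc10, Hoxc9 71.7% and Hoxa11 63.3%, while Prrx1 and Pitx1 shared 42.2% and 41.7% of the bases with it. The counted tags are read near the 3′ end of a transcript. Among genes listed in the files, exons on the same strand overlap for Hoxc10 with Hoxc5 (166 bases, 8.70% of the exonic bases of Hoxc10) and for Pitx1 with Gm28760 (108 bases), and on the opposite strand for Pitx1 with Gm47071 (165 bases) and Hoxa11 with Hoxa11os (800 bases), so that reads there could belong to either gene.

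The members fall on 6 chromosomes (GRCm38). Hoxa9 (chr6:52223100-52231089), Hoxa10 (chr6:52231197-52240854) and Hoxa11 (chr6:52242106-52245810) adjoin each other on the minus strand. Hoxc10 (chr15:102966796-102971893) and Hoxc9 (chr15:102976439-102985099) adjoin on the plus strand, as do Hoxd10 (chr2:74691924-74695105) and Hoxd9 (chr2:74697727-74700208). Tbx4 lies at chr11:85886422-85916097 on the plus strand, Pitx1 at chr13:55825051-55836192 on the minus strand and Prrx1 at chr1:163245119-163313710 on the minus strand.

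The libraries held 48558889 (ND) and 49940976 (HFD) UMIs, and 6029 and 6224 barcodes were kept, each with between 500 and 8000 genes and less than 20% of its UMIs from mitochondrial transcripts (median 4610 and 4823.5 UMIs). Cells were clustered without the members, the other Hox genes and the limb genes, and classes were named from marker genes. Before the filter 15 barcodes were common to both libraries, and among the kept ones 14. Stromal-like cells (410 in ND, 677 in HFD) carried all 7 of 7 stromal markers, and mural-like (33 and 64) and endothelial-like cells (117 and 231) all 8 of 8 and 7 of 7 of theirs. Most cells were blood cells (5258 and 5049 in named classes), and 203 and 172 cells of mixed or shallow clusters were left unnamed. Levels are given as UPM, the UMIs of a gene per 1000000 UMIs of its class. Stromal-like cells also held RNA of blood cells: the summed level of a list of 10 blood genes was 21724 UPM in ND and 12682 in HFD, and that of 19 immediate-early and heat-shock genes was 29492 and 22732. The 3′ method counts 1 tag a molecule, so that levels of different genes need no correction for length, but they do depend on how well each transcript end is captured.

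Stromal-like cells held most of the member UMIs. They held 3612 of 3992 member UMIs in ND (90.5%) and 5171 of 5667 in HFD (91.2%). The summed level of the 10 members there was 746 (722 to 771) UPM in ND and 732 (712 to 752) in HFD, against 6.35 and 6.24 over all named blood classes and 1.85 and 3.20 in mature blood cells. Mature blood cells here are all neutrophil-like, monocyte and macrophage-like, T and NK-like and B-like cells outside the Igll1 and Vpreb1 high ones. The group also holds neutrophil clusters led by Ngp, Camp and Ltf and a B cluster led by Vpreb3, so that not all of its cells are fully mature. Mural-like cells stood between at 211 (164 to 268) and 245 (207 to 289), and endothelial-like cells held 17.3 (8.31 to 31.9) and 36.8 (26.4 to 49.9). Of the 9 members with at least 20 UMIs in the comparison, 9 were at least 4-fold higher in stromal-like than in blood cells in both libraries, as were 17.7% of all genes tested. Apart from Hoxa9 and Prrx1, these members reached 20 UMIs only through their stromal-like counts. The count of 9 therefore describes the levels above again and is no independent support. The folds ranged from 6.80 in ND and 9.71 in HFD for Hoxa9 to 791 for Prrx1 in ND and 373 for Hoxc10 in HFD.

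**Figure D1:**
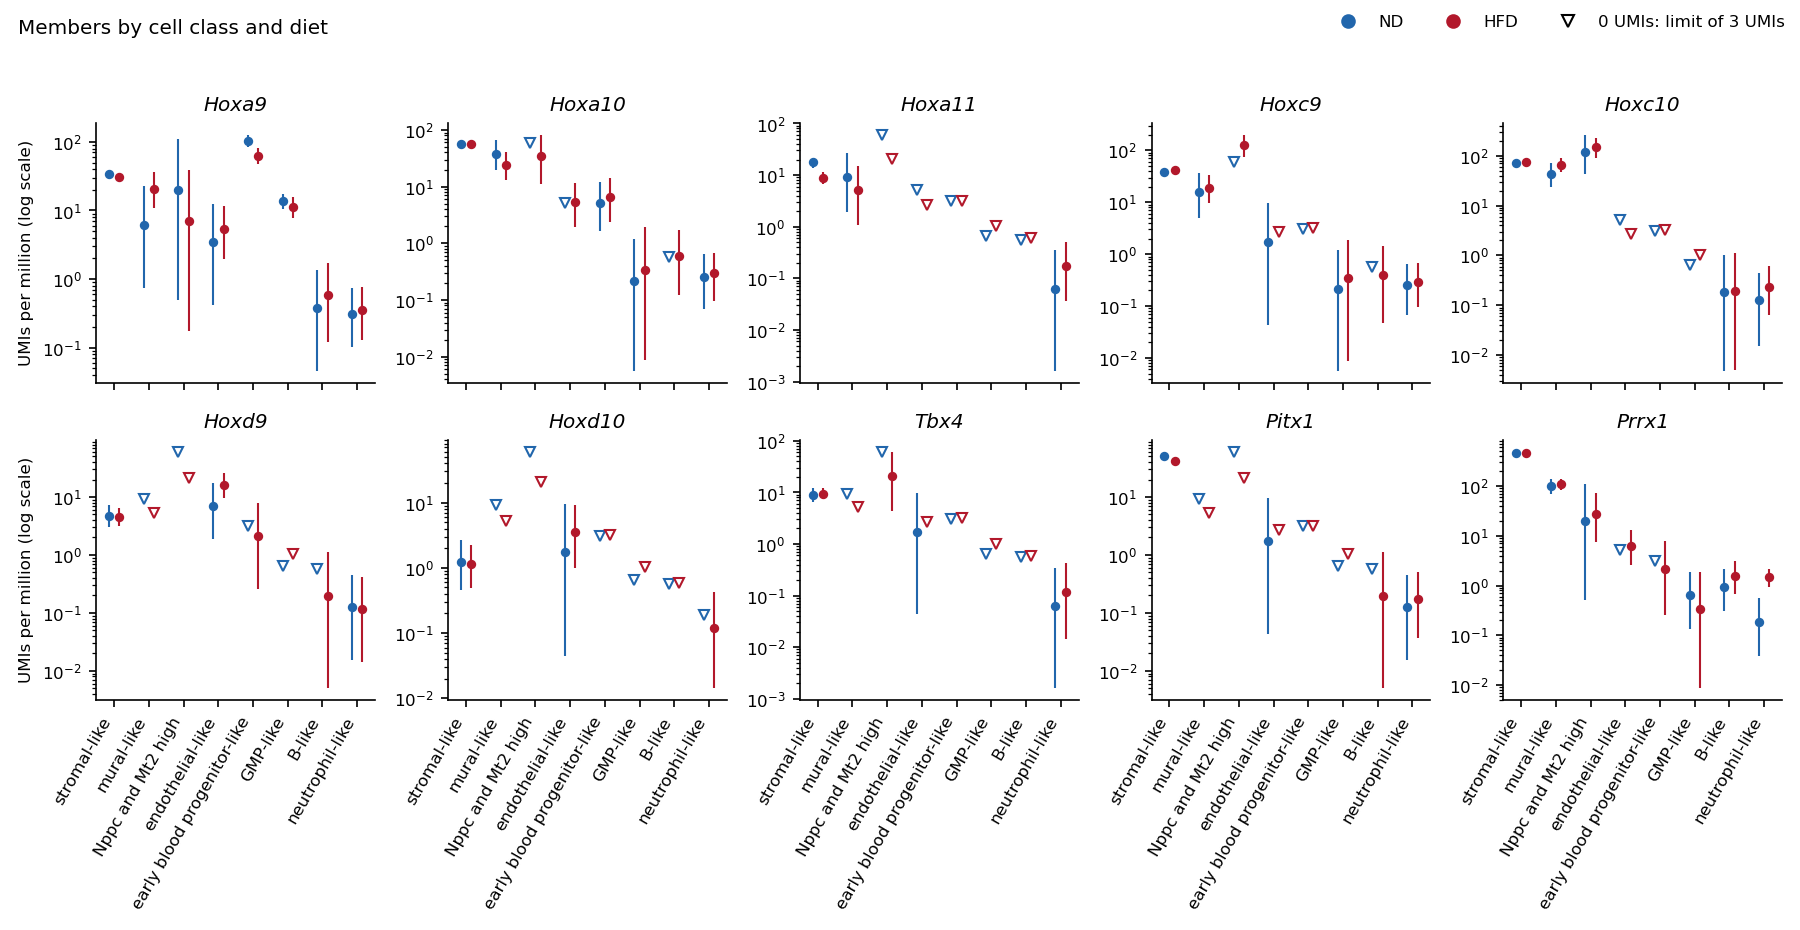
Level of each member (UPM, log axis) by cell class, with 1 panel a gene; points are the ND and HFD libraries, bars are 95% Poisson intervals for counting error, and open triangles mark counts of 0 at the limit of 3 UMIs. Prrx1 is highest in stromal-like cells (461 in ND and 462 in HFD), and Hoxa9 is highest in early blood progenitor-like cells (103 and 63.3). Hoxd9 stands at 6.93 and 16.1 in endothelial-like and at 4.75 and 4.53 in stromal-like cells. The ND endothelial-like value rests on 4 UMIs, and only in HFD does the interval of the difference leave out 0.

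Prrx1 was the highest member in stromal-like cells. Its level was 461 (442 to 481) in ND and 462 (446 to 478) in HFD, from 2233 and 3263 UMIs. A Prrx1 UMI was found in 87.3% (83.7 to 90.4) of ND and 80.8% (77.6 to 83.7) of HFD stromal-like cells, with median depths of 10687.5 and 9527 UMIs a cell. In mature blood cells, which should lack the gene, the shares were 0.233% and 0.786% at median depths of 4281 and 4290. At an equal depth of 2000 randomly drawn UMIs a cell, the stromal-like shares were 50.8% and 49.8%, with 16 ND and 52 HFD cells too shallow to enter. The levels lay within each other's intervals.

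Pitx1, the hindlimb determinant, stood at 51.2 (45.1 to 58) in ND and 41.2 (36.6 to 46.2) in HFD stromal-like cells, and 32.2% and 23.8% of them held a UMI of it. Its target Tbx4 was lower, at 9.09 (6.61 to 12.2) and 9.49 (7.35 to 12), with a UMI in 9.51% and 9.16% of cells. Both genes were rare in blood: mature blood cells gave 3 and 5 UMIs of Pitx1 and 1 and 2 of Tbx4. Tbx5, the forelimb paralogue of Tbx4, was also found in stromal-like cells, with 27 and 30 UMIs or 5.58 (3.68 to 8.12) and 4.25 (2.87 to 6.06) UPM, so that Tbx4 exceeded it by 44 to 27 UMIs in ND and 67 to 30 in HFD. Its UMIs lay mainly in the Tagln and Scg3 high subcluster (9 and 8), the Ccl11 and Col15a1 subcluster (8 and 5) and the Pi16 and Dpp4 subcluster (4 and 7).

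Among the 7 Hox members, groups 9 and 10 of the Hoxa and Hoxc clusters led in stromal-like cells, and the Hoxd members were low. Hoxc10 was the highest, at 72.5 (65.1 to 80.5) in ND and 75.5 (69.2 to 82.1) in HFD. Hoxa10 followed at 56.4 (49.9 to 63.5) and 55.5 (50.1 to 61.3), and its intervals did not meet those of Hoxc10 in either library. Hoxc9 stood at 38.2 (32.9 to 44.1) and 42.8 (38.1 to 47.9) and Hoxa9 at 33.9 (28.9 to 39.5) and 31.1 (27.2 to 35.5). These neighbours had overlapping intervals in ND and separate ones in HFD. Hoxa11, a gene of the middle limb segment, reached 17.6 (14 to 21.7) in ND and 8.92 (6.85 to 11.4) in HFD, so that it lay above Tbx4 in ND and within the interval of Tbx4 in HFD. Hoxd9 had 4.75 (3.01 to 7.13) and 4.53 (3.10 to 6.40), and Hoxd10 was the lowest member with 6 and 8 UMIs, or 1.24 (0.455 to 2.70) and 1.13 (0.489 to 2.23) UPM. In the order of levels Pitx1 lay between Hoxa10 and Hoxc9 in ND and next to Hoxc9 in HFD, and its intervals overlapped those of Hoxa10 in ND and of Hoxc9 in HFD. A UMI was present in 44.6% (ND) and 42.7% (HFD) of stromal-like cells for Hoxc10 and in 1.22% and 1.03% for Hoxd10, and in mature blood cells no Hox member exceeded 0.233%.

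The make-up of the Hox member UMIs differed between the classes. Over both libraries, the 2637 Hox member UMIs of stromal-like cells were Hoxc10 by 33.5% (31.7 to 35.4), Hoxa10 by 25.2% (23.6 to 26.9), Hoxc9 by 18.5% (17 to 20.0), Hoxa9 by 14.6% (13.2 to 16) and Hoxa11 by 5.61% (4.76 to 6.56). Mural-like cells, the pericytes and smooth muscle cells around vessels, had a similar order on 114 UMIs: Hoxc10 took 45.6% (36.3 to 55.2) and Hoxa10 22.8% (15.5 to 31.6). Endothelial-like cells, which line vessels, had another leading gene. Of 42 UMIs, Hoxd9 took 52.4% (36.4 to 68) and Hoxd10 11.9% (3.98 to 25.6), and Hoxc10 and Hoxa11 were at 0 in both libraries, which allows up to 7.14% each. In early blood progenitor-like cells Hoxa9 took 92.4% (87.4 to 95.9) of 172 UMIs, and in granulocyte and monocyte progenitor-like (GMP-like) cells 96% (90.1 to 98.9) of 100. Intervals of these shares are exact binomial (Clopper-Pearson).

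**Figure D2:**
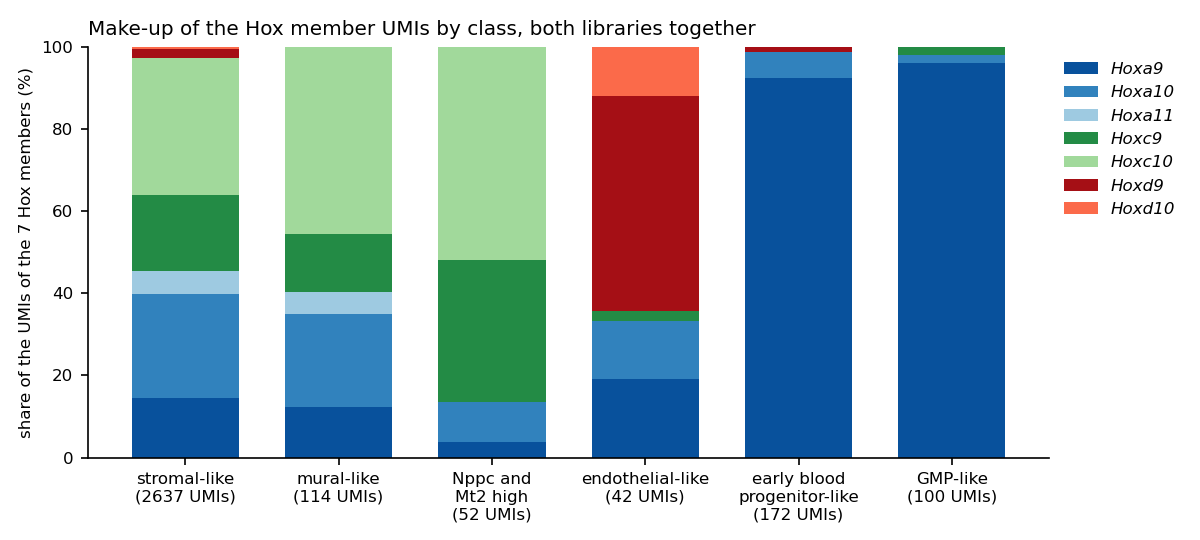
Share of each Hox member (%) among the UMIs of the 7 Hox members in 6 classes, both libraries together, with the number of UMIs under each bar. Hoxc10 is the largest part in stromal-like (33.5%), mural-like (45.6%) and Nppc and Mt2 high cells (51.9%), Hoxd9 in endothelial-like cells (52.4%) and Hoxa9 in both blood progenitor classes (92.4% and 96%).

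The whole set of 39 Hox genes was listed to place the members. In stromal-like cells 18 of 39 had at least 20 UMIs over both libraries, as had 12639 of all 32285 genes listed. The Hoxc cluster held 52.5% (50.9 to 54) of 4126 Hox UMIs there, Hoxa 38.4% (36.9 to 39.9), Hoxd 5.72% (5.03 to 6.47) and Hoxb 3.42% (2.88 to 4.02). Endothelial-like cells had a summed Hox level of the same order, 405 and 390.0 UPM against 343 and 349 in stromal-like cells, but from other genes: Hoxb held 52.8% (48.9 to 56.6), Hoxa 30.9% (27.5 to 34.6), Hoxd 16% (13.3 to 19) and Hoxc 0.299% (0.0362 to 1.08) of 669 UMIs. Hoxa7 and Hoxb7, named after their values were seen, led there at 62.4 and 69 and at 58.9 and 52 UPM. Among the most posterior genes, Hoxc11 had 48 UMIs in ND and 48 in HFD stromal-like cells, Hoxd11 6 and 3, Hoxa13 21 and 22, and Hoxd13 0 and 1. Hoxc11 stood at 9.92 and 6.80 UPM, whereas Hoxa13, a gene of the hand and foot plate, stood at 4.34 and 3.11. Hoxc8, anterior to the Hoxc members, stood at 17.6 and 29.

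**Figure D3:**
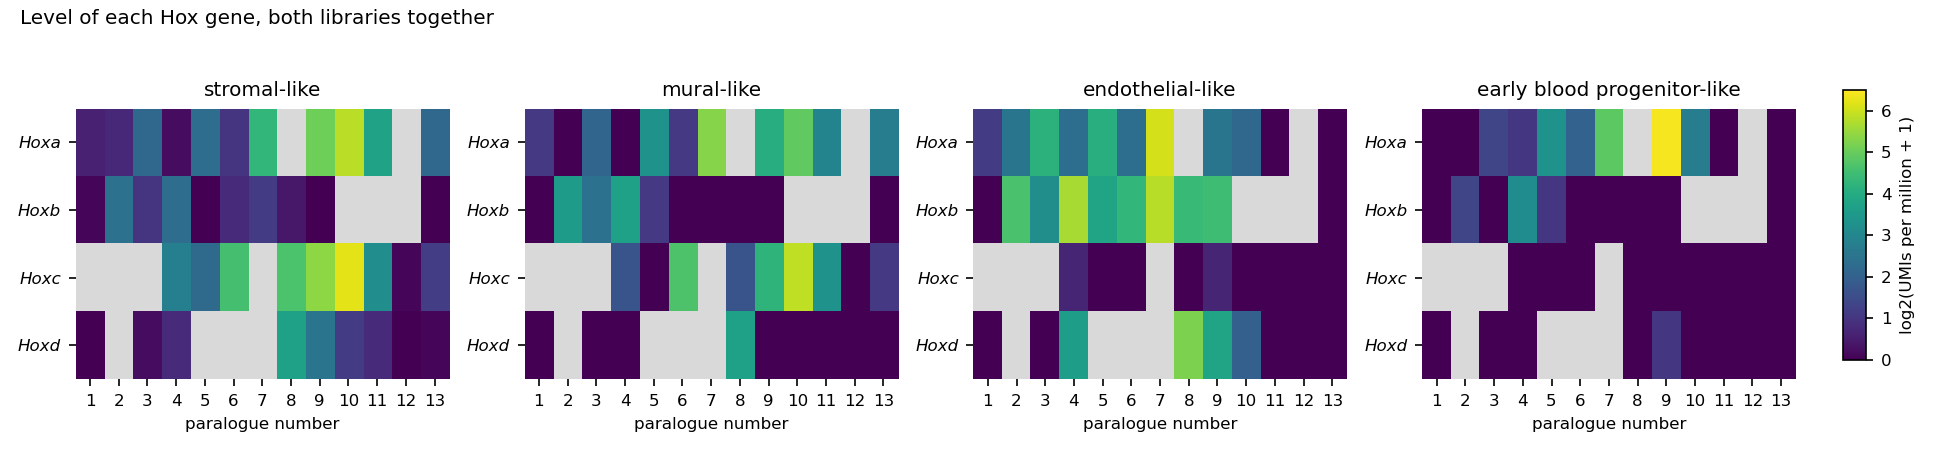
Level of each of the 39 Hox genes, both libraries together, on a log2(UPM + 1) colour scale, with clusters in rows and paralogue number in columns for each class; grey marks positions with no gene. Stromal-like cells are brightest at Hoxc10, Hoxa10 and their neighbours of group 9, and endothelial-like cells have colour along the Hoxb row and almost none in the Hoxc row (0.299% of their Hox UMIs).

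In mural-like cells 6 of the 10 members were detected and 4 were at 0 in both libraries. Prrx1 stood at 99.4 (68 to 140.3) and 109.7 (84.3 to 140.3), which is 4.64-fold and 4.21-fold below stromal-like cells. Hoxc10 had 14 UMIs in ND and 38 in HFD (43.5 and 66.1 UPM), Hoxa10 12 and 14, Hoxc9 5 and 11, Hoxa9 2 and 12, and Hoxa11 3 and 3. Pitx1, Tbx4, Hoxd9 and Hoxd10 were at 0, and a count of 0 allows 3 UMIs, or 9.32 and 5.22 UPM here. For Pitx1 the stromal-like level was at least 5.50-fold and 7.89-fold higher. With counts of 0 set at this limit, 3 of 9 members (Hoxc9, Pitx1 and Prrx1) were at least 2-fold higher in stromal-like than mural-like cells in both libraries, as were 10.7% of all genes tested. With 0.5 added to each count in place of the limit, Hoxd9 and Tbx4 passed as well (5 of 9, against 15.6% of all genes), but these calls rest on the added 0.5, since the depth of the mural-like cells could not show a 2-fold difference for either gene in both libraries. None was 2-fold lower (7.46%). Hoxc10, at 1.67-fold and 1.14-fold, and Hoxa11, on 3 mural-like UMIs in each library, did not pass.

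In endothelial-like cells Hoxd9 was the member detected most. Hoxd9 had 4 UMIs in ND and 18 in HFD, or 6.93 (1.89 to 17.7) and 16.1 (9.57 to 25.5) UPM, found in 3.42% and 5.63% of cells at median depths of 4385 and 4036 UMIs. It was the only tested member of 9 that was not at least 2-fold higher in stromal-like than endothelial-like cells in both libraries. The other 8 passed, as did 15% of all genes tested, and none was 2-fold lower in both (10.3%). The stromal-like level of Hoxd9 was 0.686 of the endothelial-like one in ND and 0.281 in HFD, and on the log2 scale the difference was -0.68 (-2.09 to 1.45) and -1.85 (-2.71 to -0.91), so that only the HFD interval left out 0. Prrx1 gave 0 and 7 UMIs there, and was the 1 member with enough UMIs to set mural-like against endothelial-like cells, where it passed 2-fold higher in both libraries as did 8.68% of all genes. It had enough UMIs only through its mural-like counts, so that this call is no independent support either. In endothelial-like cells Pitx1 and Tbx4 each gave 1 UMI in ND and 0 in HFD.

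A small cluster, called Nppc and Mt2 high by its leading genes, held 8 ND and 31 HFD cells. It scored highest for muscle markers (3.20, against 1.81 for the next class) and had 3 of 6 of them. These were Pax7, Myf5 and Myod1, transcription factor genes of muscle progenitors, at 319, 339 and 438 UPM in ND and 355, 446 and 181 in HFD. Its 10 leading genes held 0 of the muscle markers and 1 marker of tenocytes (Chodl). The text therefore calls it by its leading genes and not by a cell type, and the diets were not compared in it. Hoxc10 gave 6 and 21 UMIs there and Hoxc9 0 and 18, which were 51.9% and 34.6% of 52 Hox member UMIs. Of all 72 Hox UMIs of the cluster, Hoxc held 79.2% (68 to 87.8) and Hoxa 20.8% (12.2 to 32), and Hoxb and Hoxd were at 0. Prrx1 was low there, with 1 and 4 UMIs, Tbx4 gave 0 and 3, and Pitx1 was at 0.

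Over all named blood cells Hoxa9 had more UMIs than any other member, 205 in ND and 127 in HFD. In mature blood cells Prrx1 had more, with 21 and 47 UMIs against 12 and 10 of Hoxa9. Early blood progenitor-like cells (47 and 45 cells, with all 7 of 7 markers, among them Kit, Cd34 and Flt3) had 100 and 59 UMIs of Hoxa9, or 103 (84.2 to 126) and 63.3 (48.2 to 81.6) UPM. That is above the stromal-like level in both libraries, and 59.6% and 48.9% of these cells held a UMI at median depths of 17243 and 17958. GMP-like cells had 13.7 (10.5 to 17.5) and 11.2 (7.74 to 15.8), the Igll1 and Vpreb1 high B cell precursors 6.65 (3.88 to 10.7) and 3.41 (1.56 to 6.48), and mature blood cells 0.390 (0.201 to 0.681) and 0.323 (0.155 to 0.594). The step from early progenitor-like to mature blood cells, as grouped here, was 265-fold in ND and 196-fold in HFD. That group leaves out dendritic-like, erythroid-like and basophil and mast-like cells, whose Hoxa9 levels were higher, on few UMIs. Dendritic-like cells stood at 9.34 and 6.53 UPM, on 4 UMIs in each library. Erythroid-like cells stood at 5.61 and 9.16, on 7 and 9 UMIs, and basophil and mast-like cells gave 2 and 3 UMIs. The step to these classes was therefore smaller. Hoxa9 was 1 of the 2 members with enough UMIs to set early progenitor-like against mature blood cells. It passed 4-fold in both libraries, as did 5.43% of all genes tested. The other, Prrx1, did not. Hoxa9 had enough UMIs only through its early progenitor-like counts, and Prrx1 only through its mature blood counts. Neither outcome is therefore independent support. Hoxa10 had 5 and 6 UMIs in early progenitor-like cells, and Hoxa11, Hoxc9, Hoxc10, Hoxd10, Tbx4 and Pitx1 were at 0 there in both libraries. Meis1, a cofactor of Hoxa9 in progenitors, gave 94 and 77 UMIs in the same cells, or 97.2 and 82.6 UPM, against 6.82 and 9.20 in stromal-like cells. Blood classes as a whole held 53.5% of all Hoxa9 UMIs in ND and 34.3% in HFD.

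In mature blood cells the other members stood at a small fraction of their stromal-like level. Prrx1 was at 0.148% and 0.329% of it, beside 0.291% and 0.356% for the stromal matrix gene Dcn and 0.243% and 0.363% for Col1a1, and Hoxa9 was at 1.15% and 1.04%. Hoxd9 was at 2.05% and 2.85%, on 3 and 4 UMIs, and Hoxd10 at 5.71% in HFD, on 2 UMIs against 0 in ND. The remaining members lay between 0.190% (Pitx1) and 0.370% (Hoxa11) in ND and between 0.300% (Hoxc10) and 1.09% (Hoxa11) in HFD. Neutrophil-like cells gave 3 UMIs of Prrx1 in ND and 25 in HFD (0.188 and 1.47 UPM). Over all named blood cells Dcn stood at 40.1 and 75.4 UPM and Col1a1 at 8.58 and 20.7. The classes did not move alike. Dcn stood at 62.6 and 86.8 in neutrophil-like cells but at 58.1 and 29.9 in monocyte and macrophage-like cells, and the 35 erythroid-like cells of HFD alone held 778 Dcn UMIs (792 UPM, against 8.02 in ND). The part of free RNA in these values was not tested.

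Stromal-like cells were clustered again and gave 14 subclusters. Those with the same name were joined (3 osteogenic-like and 2 with Ccl11 and Col15a1), which left 11, of which 7 held at least 20 cells in each library. The named ones were Pi16 and Dpp4 fibroblast progenitor-like cells (48 and 47), Ccl11 and Col15a1 fibroblast progenitor-like cells (82 and 97) and osteogenic-like cells with Postn or osteoblast markers (70 and 153). Tenocyte-like (8 and 36) and chondrocyte-like cells (8 and 22) had few ND cells, and the chondrocyte-like cells also scored as high for neutrophil markers. The others did not meet the rule for a name and are called by their leading genes: H19 and Nppc high (74 and 98), Tagln and Scg3 high (34 and 57), H2-Eb1 and H2-Ab1 high (25 and 65) and Ngp and Camp high (35 and 36), and the smaller C4b and Hmcn2 high (18 and 50) and Prg4 and Htra4 high (8 and 16). The H2-Eb1 and H2-Ab1 high cells had all 7 of 7 Ccl11 and Col15a1 markers, at a mean log2 difference of 2.05 from the median subcluster, and the Tagln and Scg3 high cells all 7 of 7 Pi16 and Dpp4 markers at 2.01. Both were left without a name because their 10 leading genes held 1 marker of another class and 0 of these. The H19 and Nppc high cells scored highest for tenocyte markers (5 of 8, at 1.26) and were left without a name for the same reason. In the Ngp and Camp high cells 6 of the 10 leading genes were markers of neutrophils. All members except Hoxd10 were found in each of the 7 larger subclusters in at least 1 library.

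Among the 7 larger subclusters, the H19 and Nppc high cells carried the highest level of Prrx1, Pitx1, Hoxc10, Hoxa10, Hoxc9 and Hoxa9 in both libraries. Prrx1 reached 923 (858 to 991) in ND and 987 (929 to 1047) in HFD there, while the other 6 large subclusters lay between 300.2 and 439 in ND and between 265 and 586 in HFD. Pitx1 stood at 133 (109 to 160.5) and 116 (96.9 to 138), Hoxc10 at 137 (113 to 164) and 132 (111 to 155), and Hoxa10 at 105 (83.9 to 129.6) and 104 (86.2 to 125). Hoxd9 had its lowest level among the 7 subclusters there in both libraries. With 2 and 1 UMIs (2.44 and 0.908 UPM, against medians of 4.53 and 2.52), it had too few for the comparisons that follow. Against the Ccl11 and Col15a1 subcluster, 6 of 7 tested members were at least 2-fold higher in both libraries (Hoxa9, Hoxa10, Hoxa11, Hoxc10, Pitx1 and Prrx1), as were 5.81% of all genes tested. Against the Pi16 and Dpp4 subcluster 4 of 7 passed (Hoxa10, Hoxc10, Pitx1 and Prrx1, with a background of 8.58%) and against osteogenic-like cells 2 of 7 (Pitx1 and Prrx1, background 4.69%). The H19 and Nppc high cells already stood out by the levels of most members. These counts therefore describe the same levels again and are no independent support. The other Hox members followed with less contrast. Hoxa9 stood at 57.4 (42.1 to 76.3) and 45.4 (33.7 to 59.8) in the H19 and Nppc high cells and was lowest in the H2-Eb1 and H2-Ab1 high cells, at 16.6 and 7.43. Hoxc9 had 56.1 (41.1 to 74.9) and 56.3 (43.1 to 72.1), and its HFD level in the H2-Eb1 and H2-Ab1 high cells, 53.9 (36.1 to 77.4), lay within that interval. Hoxa10 was lowest in the Pi16 and Dpp4 cells, at 27.2 and 27.1. No tested member was 2-fold lower in both libraries in these comparisons, with backgrounds of 5.59%, 7.48% and 4.16% in the same order. The clustering genes did not include the members, and the leading genes of this subcluster also held Wnt16, Sfrp2, Chad and Mfap4. Its summed member level was 1461 in ND and 1469 in HFD. Of the smaller subclusters, tenocyte-like cells had 909 and 875 and C4b and Hmcn2 high cells 967 and 718. Chondrocyte-like cells had 412 and 546 and Prg4 and Htra4 high cells 509 and 371.

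Pitx1 spanned a wide range over the subclusters. It was 16.3 (9.31 to 26.4) in ND and 3.36 (0.916 to 8.61) in HFD in the Ccl11 and Col15a1 subcluster, 21.1 and 22 in the Pi16 and Dpp4 subcluster, 12.4 and 11.1 in the H2-Eb1 and H2-Ab1 high cells, and 62.5 (44.6 to 85.1) and 34.2 (25 to 45.6) in osteogenic-like cells. It was the only tested member of 6 that was at least 2-fold higher in osteogenic-like than Ccl11 and Col15a1 cells in both libraries (background 6.52%). Chondrocyte-like cells, on 9 and 25 UMIs, stood at 65.1 and 76.2, and tenocyte-like cells, on 3 and 11, at 36.3 and 36.6. Among the 7 larger subclusters, Tbx4 had its highest level in osteogenic-like cells, 15.6 (7.49 to 28.7) and 16.4 (10.3 to 24.8), and its lowest in the Ccl11 and Col15a1 (ND, 4.07) and the Pi16 and Dpp4 subclusters (HFD, 3.39), on 4 and 2 UMIs. The 4 smaller subclusters gave between 0 and 2 Tbx4 UMIs in each library. Pitx1 and Tbx4 did not share this order, since the H19 and Nppc high cells led only for Pitx1.

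Hoxa11 was lowest among the 7 subclusters in osteogenic-like cells in HFD, with 1 UMI against 6 in ND. The H2-Eb1 and H2-Ab1 high cells gave 0 and 1. The other Hoxa11 UMIs of the 7 subclusters lay in the H19 and Nppc high (26 and 17), Ngp and Camp high (11 and 5), Tagln and Scg3 high (11 and 9), Ccl11 and Col15a1 (11 and 6) and Pi16 and Dpp4 subclusters (8 and 10). The smaller subclusters held the rest of the 85 ND and 63 HFD UMIs. Of the Hox member UMIs of osteogenic-like cells over both libraries, Hoxa11 was 1.42% (0.572 to 2.90), against 6.05% (4.41 to 8.06) in the H19 and Nppc high and 9.84% (5.93 to 15.1) in the Pi16 and Dpp4 cells. In the Pi16 and Dpp4 subcluster Hoxc10 took 23% (17.1 to 29.7), Hoxa9 22.4% (16.6 to 29.1), Hoxc9 20.8% (15.1 to 27.4) and Hoxa10 18.6% (13.2 to 25), with overlapping intervals, whereas Hoxc10 led in osteogenic-like cells with 38.1% (33.8 to 42.5).

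**Figure D4:**
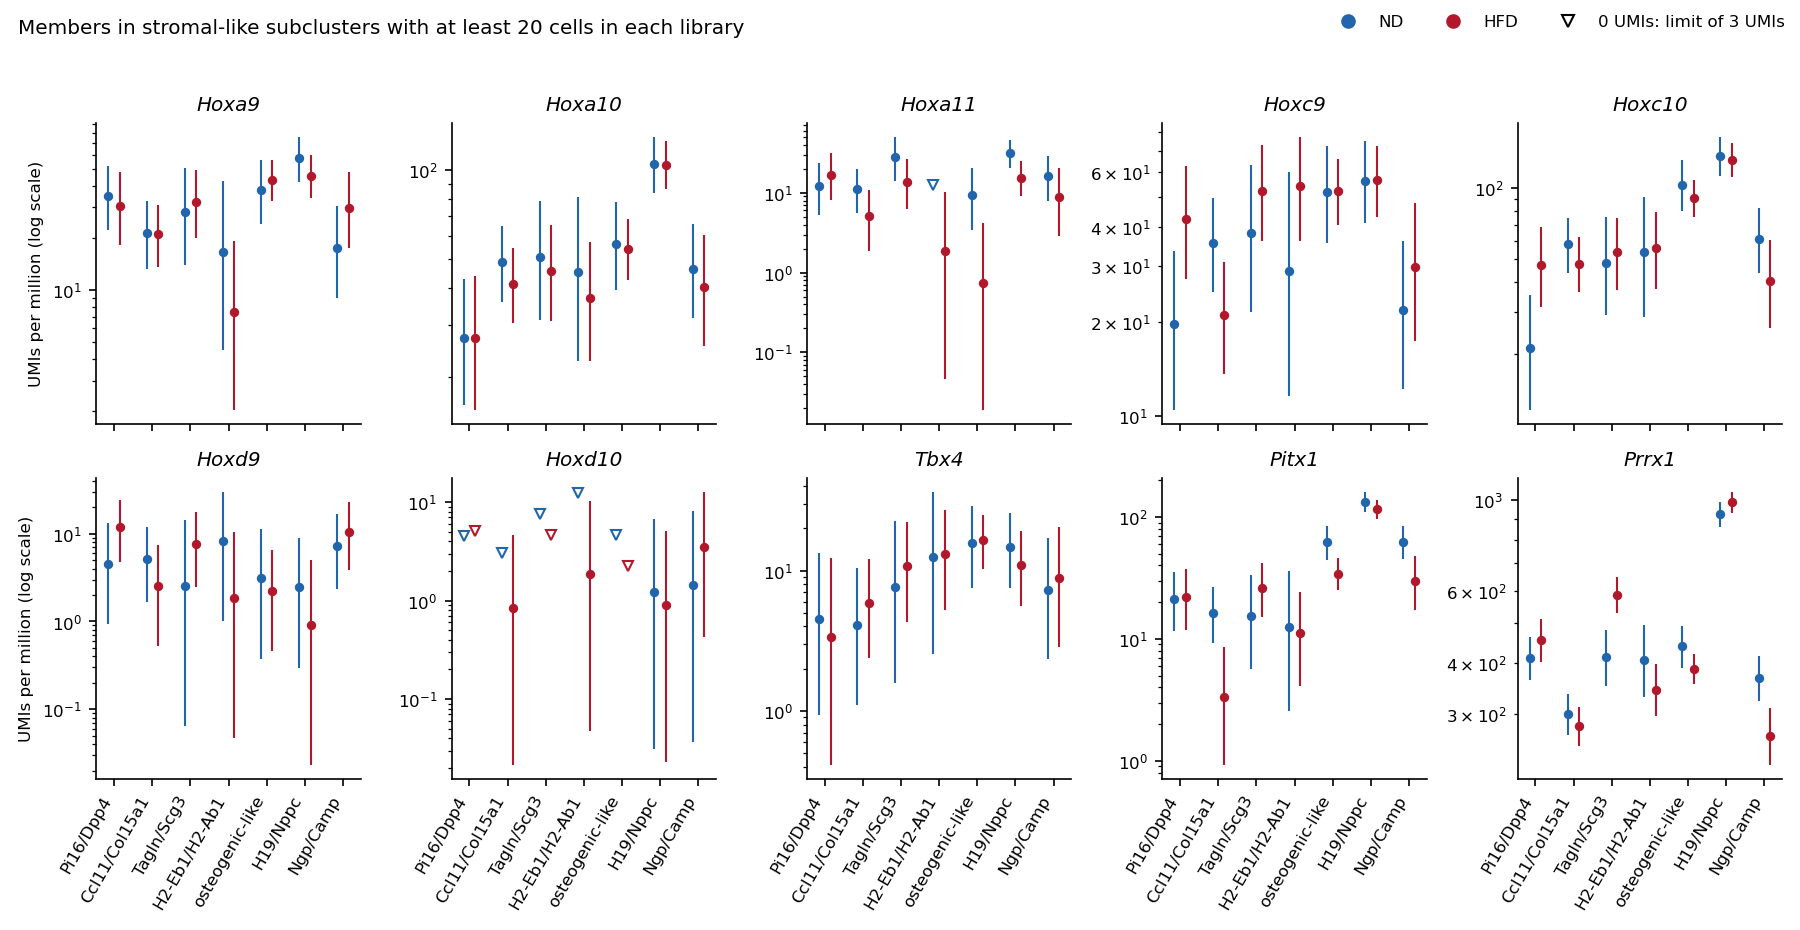
Level of each member (UPM, log axis) in the 7 larger stromal-like subclusters, with points for the ND and HFD libraries, bars for 95% Poisson intervals and open triangles for counts of 0 at the limit of 3 UMIs. The H19 and Nppc high subcluster holds the highest Prrx1 (923 and 987), Pitx1 (133 and 116) and Hoxc10 levels (137 and 132), and Pitx1 is low in the Ccl11 and Col15a1 subcluster (16.3 and 3.36).

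The study compared the diets, and here the question was whether the positional code of stromal-like cells differed between the ND and the HFD library. The summed member level was close, and its values of 746 and 732 UPM had overlapping intervals. Prrx1 gave 2233 of the 3612 summed UMIs in ND and 3263 of 5171 in HFD, so that the sum mostly follows this gene. Of 9 members with at least 20 UMIs, 1 was past 1.5-fold, Hoxa11, which was lower in HFD. Over all 12639 genes tested, 5.65% were past 1.5-fold lower and 8.04% higher in HFD, or 13.7% in all. The median log2 ratio of HFD over ND was -0.02 over the 9 members and 0.05 over all genes tested. Prrx1 had a ratio of 0.00 (-0.08 to 0.08), Hoxa10 -0.02 (-0.25 to 0.20), Hoxc10 0.06 (-0.14 to 0.26), Hoxa9 -0.12 (-0.42 to 0.18) and Hoxc9 0.16 (-0.11 to 0.43), all on the log2 scale with 0.5 UMIs added to each count. These 5 intervals hold 0 and leave out a 1.5-fold change in either direction. Tbx4, at 0.06 (-0.51 to 0.64), and Hoxd9, at -0.08 (-0.89 to 0.77), had intervals that do not leave it out, and Hoxd10 was not compared on its 14 UMIs. The Hoxc cluster held 48.7% (46.3 to 51.2) of all Hox UMIs in ND and 55% (53 to 57) in HFD stromal-like cells, and the Hoxa cluster 41.7% (39.3 to 44.1) and 36.2% (34.3 to 38.1).

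Hoxa11 gave 85 UMIs in 410 ND cells and 63 UMIs in 677 HFD cells. Its level was 17.6 and 8.92 UPM, with a log2 ratio of -0.97 (-1.47 to -0.49), and the share of cells with a UMI was 13.2% (10.1 to 16.8) and 7.39% (5.53 to 9.62). At 2000 UMIs a cell the shares were 3.55% and 2.56%, and the ratio of the thinned counts was -0.55, which does not pass 1.5-fold. In the subclusters with at least 20 Hoxa11 UMIs the ratio was -1.03 (-2.01 to -0.10) for the H19 and Nppc high and -1.01 (-2.48 to 0.38) for the Tagln and Scg3 high cells, where 8.86% and 9.57% of all genes were past 1.5-fold lower. The Pi16 and Dpp4 cells had more UMIs in HFD, 10 against 8 in ND. Hoxa11os, the antisense RNA that overlaps 800 of the 2287 exonic bases of Hoxa11, had 45 UMIs in ND and 53 in HFD, or 9.30 and 7.50 UPM. The sources used here do not give whether the counting used the strand, so that reads of the overlap could belong to either. With each library pooled over its mice, a difference of this kind cannot be told apart from one between single mice, and the labels do not separate femoral from tibial cells.

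Pitx1 was lower in HFD stromal-like cells at a log2 ratio of -0.32 (-0.56 to -0.06), which does not pass 1.5-fold. By subcluster the ratio was -0.87 (-1.51 to -0.22) in osteogenic-like, -2.15 (-4.31 to -0.64) in Ccl11 and Col15a1 and -1.04 (-1.97 to -0.23) in Ngp and Camp high cells, all past 1.5-fold. In the H19 and Nppc high cells, which held the most Pitx1 UMIs, it was -0.20 (-0.58 to 0.19), and in the Pi16 and Dpp4 cells 0.06 (-1.15 to 1.26). The background of genes lower by 1.5-fold was 9.94% in osteogenic-like, 8.96% in Ccl11 and Col15a1 and 10.5% in Ngp and Camp high cells. The Ccl11 and Col15a1 value rests on 16 ND and 4 HFD UMIs. In the Pi16 and Dpp4 cells 2 of 6 compared members were past 1.5-fold higher in HFD: Hoxc9 at 1.08 (0.09 to 2.20), on 13 ND and 25 HFD UMIs, and Hoxc10 at 1.14 (0.19 to 2.20), on 14 and 28. There 14.9% of all genes were past 1.5-fold higher. In the Ccl11 and Col15a1 cells 2 of 6 were past 1.5-fold lower, Pitx1 and Hoxc9. Hoxc9 was -0.75 (-1.56 to 0.02) there and Hoxc10 -0.28 (-0.83 to 0.28). In each of the 3 unnamed large subclusters other than the H19 and Nppc high one, 1 member was past 1.5-fold higher in HFD, with an interval that holds 0. It was Hoxc9 in the H2-Eb1 and H2-Ab1 high cells, at 0.82 (-0.33 to 2.33) with a background of 18.5%. In the Ngp and Camp high cells it was Hoxa9, at 0.76 (-0.38 to 1.97) with 12.2%, and in the Tagln and Scg3 high cells Pitx1, at 0.69 (-0.65 to 2.40) with 12.8%. The levels of the blood gene list and of the immediate-early list also differed between the libraries in stromal-like cells, as given above, and their part in these ratios was not tested.

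**Figure D5:**
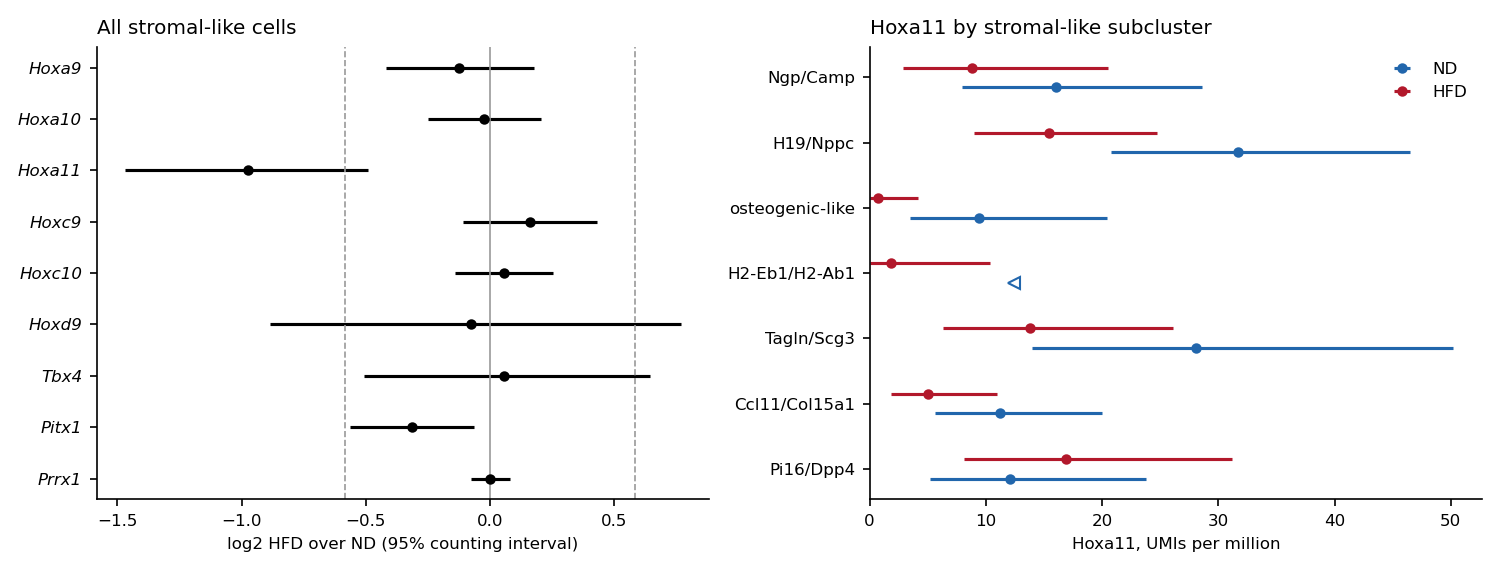
Left, log2 ratio of HFD over ND for each compared member in all stromal-like cells with 95% counting intervals and dashed lines at 1.5-fold; right, level of Hoxa11 (UPM) in the 7 larger stromal-like subclusters in each library with 95% Poisson intervals and an open triangle for a count of 0 at the limit of 3 UMIs. Hoxa11 is the one member beyond the dashed lines (-0.97), and its ND level exceeds its HFD level in most but not all subclusters.

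Outside stromal-like cells few members had 20 UMIs over both libraries. In mural-like cells Prrx1 had a log2 ratio of 0.13 (-0.49 to 0.80), Hoxc10 of 0.57 (-0.31 to 1.60) and Hoxa10 of -0.62 (-1.83 to 0.63), and all 3 intervals hold 0. The Hoxa10 value is past 1.5-fold lower, as were 12.1% of all genes there. In endothelial-like cells Hoxd9 had 1.09 (-0.38 to 3.24), past 1.5-fold higher with a background of 10.2% and an interval that holds 0. Hoxa9 in early blood progenitor-like cells had -0.70 (-1.20 to -0.23), past 1.5-fold lower in HFD, as were 10.2% of all genes tested there, and in GMP-like cells -0.28 (-0.94 to 0.34). In the same early progenitor-like cells the immediate-early and heat-shock list stood at 12070 UPM in ND and 5434 in HFD, and Meis1 at 97.2 and 82.6. The part of the former in the Hoxa9 value was not tested.

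Single stromal-like cells rarely showed more than 2 Hox members at this depth. In cells thinned to 5000 UMIs (351 in ND and 544 in HFD), 36.5% and 39.9% had no UMI of the 7 Hox members, 40.7% and 39% had 1 of them, 19.4% and 15.3% had 2, and 2.85% and 5.33% had 3. At the levels given above a cell of this depth is expected to show less than 1 UMI of each Hox member, so that a cell without a UMI is not shown to lack the RNA. Cells with a UMI of Pitx1 had a UMI of Hoxa9 in 25.4% (15.5 to 37.5) against 13% (9.34 to 17.5) of cells without Pitx1 in ND, and in 23.8% (15.2 to 34.3) against 12.4% (9.52 to 15.8) in HFD. For Hoxc10 the shares were 38.8% (27.1 to 51.5) against 25.4% (20.4 to 30.8) in ND and 40.5% (29.9 to 51.7) against 26.7% (22.7 to 31) in HFD, and for Prrx1 92.5% (83.4 to 97.5) against 73.9% (68.4 to 79) and 86.9% (77.8 to 93.3) against 74.6% (70.3 to 78.5). The share was higher in cells with Pitx1 for Hoxa9, Hoxa10, Hoxa11, Hoxc9, Hoxc10 and Prrx1 in both libraries, although for Hoxa10 in ND the values were 23.9% (14.3 to 35.9) and 22.9% (18.1 to 28.2). For Hoxc9 they were 14.9% against 13.7% in ND and 20.2% against 17.4% in HFD. For Hoxa11 they were 10.4% against 5.99% and 4.76% against 3.04%. Except for Prrx1 in ND, the intervals with and without Pitx1 overlapped for each of these genes. Tbx4, the target of Pitx1, was found in 4.48% (0.933 to 12.5) of ND cells with and 5.63% (3.25 to 8.99) without a Pitx1 UMI, and in 4.76% (1.31 to 11.7) and 5.65% (3.73 to 8.17) in HFD, with overlapping intervals. Cells of a library are not replicates, and how far the subclusters with high levels of several members enter these shares was not tested.

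Other limb transcription factors and Hox cofactors, from a list of 32 genes, were mostly present in stromal-like cells: 26 of 32 had at least 20 UMIs over both libraries. By the same rule 12639 of all 32285 genes listed had this many there. The highest, in UPM in ND and HFD, were Twist1 (214 and 193), Prrx2 (118 and 138), the paralogue of Prrx1, Dlx5 (113 and 102) and Shox2 (103 and 122). The cofactor gene Meis2 (28.5 and 38.2) was found beside Msx1 (76.9 and 70.5), Tbx15 (43.8 and 39.5) and Dlx6 (33.3 and 27.6). Prrx1 stood above Twist1, the highest of this list, with 461 against 214 in ND and 462 against 193 in HFD. In mural-like cells Prrx2 was at 0 in both libraries, with limits of 9.32 and 5.22, although Prrx1 was detected there. Msx1, by contrast, stood at 112 and 127 in mural-like and at 71 and 107 in endothelial-like cells. Among 10 noncoding RNAs of the Hox clusters listed in the files, 4 had at least 20 UMIs in stromal-like cells over both libraries. Hoxc8, named after its values were seen, was higher in HFD stromal-like cells at a log2 ratio of 0.72 (0.35 to 1.11). That is past 1.5-fold, as were 8.04% of all genes tested there.

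Across 18 classes and subclusters, those with a name and the Nppc and Mt2 high cluster, in both libraries (36 points), the genes whose levels followed each member most closely were ranked by Pearson's r of log2(UPM + 1) among 13160 other genes with at least 100 UMIs. The points share libraries, and the stromal-like subclusters share much of their RNA, so that the values are descriptions without a test. For Prrx1 they were Ogn (0.97), Ptgis (0.96), Ddr2 (0.96). Ogn encodes a small leucine-rich proteoglycan and Ddr2 a collagen receptor. For Pitx1 they were Ltbp2 (0.98), Tnfrsf11b (0.95), Tmem45a (0.95), of which Tnfrsf11b encodes osteoprotegerin. For Hoxc10 they were Sobp (0.98), Evc2 (0.97), Hoxc6 (0.97), so that a gene of the same cluster was among the 3. For Hoxc9 they were Cys1 (0.96), Gpx8 (0.96), Srpx2 (0.94), for Hoxa10 P3h3 (0.94), Maged2 (0.93), Ttc8 (0.93), for Hoxa11 C1qtnf2 (0.94), Gpc6 (0.94), Mrgprf (0.93) and for Tbx4 Arsj (0.92), Igdcc4 (0.90), Kcnt2 (0.90). Hoxa9, which was high in stromal-like and early blood progenitor-like cells, had the lowest likeness: Smo (0.84), Fam92a (0.83), Morf4l2 (0.82). Hoxd9 and Hoxd10 had too few UMIs for this ranking.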

How the data were processed

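The authors aligned and counted 10x Genomics 3′ single-cell libraries with Cell Ranger 6.0.1 against mm10, per the file headers and the submitters' processing notes, and deposited filtered matrices of raw UMI counts, 1 for each diet. The sources used here do not give the annotation or the handling of strand. No column of the matrices was left unused (0). The members and gene lists were chosen with earlier results of these data known, and the thresholds for naming classes were set after seeing the data.

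From these counts, barcodes were kept with between 500 and 8000 genes (both excluded) and less than 20% of UMIs from mitochondrial transcripts. Cells were normalised with sctransform 0.4.2 and clustered in Seurat 5.3.0 (SeuratObject 5.2.0, R 4.3.3; an earlier Seurat was used in the study) with 30 principal components at resolution 0.5, and stromal and blood progenitor clusters again at resolution 2. The members and other Hox and limb genes, 15 of the 3000 variable genes, were left out of the clustering. A cluster took the class name with the highest score (the mean log2 difference of the markers from the median cluster) where at least 3 of the markers were detected, and was left mixed where another class scored close to it. A stromal subcluster also needed a score of at least 1, no higher score for another class and no more markers of another class than of its own among its 10 leading genes. Progenitor subclusters needed a score 2.5 above the next class (or every marker, for early progenitors), with shallow subclusters left unnamed. For non-blood classes a score 1 above the next class was enough. By this rule the Nppc and Mt2 high cluster scored as skeletal muscle, a name the text does not use because its 10 leading genes held 0 muscle markers. Scrublet (scanpy 1.11.5) marked 108 ND and 86 HFD cells at a score of 0.25, which was chosen after seeing the scores because the automatic threshold marked 9 and 23. These cells were kept, and leaving them out was an alternative.

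UMIs were summed over the cells of a class and divided by the class total, in UPM (per 1000000 UMIs). With 1 library a diet no test was run. Intervals are exact at 95% (Poisson for levels, Clopper-Pearson for shares, conditional binomial for ratios), and a count of 0 was given the limit of 3 UMIs. Ratios had 0.5 added to each count. Those between diets were read only with at least 20 UMIs over both libraries, and were called past 1.5-fold. Those between classes were read only with at least 20 UMIs over the compared classes within each library. They were called past 4-fold between stromal-like or progenitor and blood cells and past 2-fold between other classes, in both libraries. Named genes were the members, the listed genes with the 10 highest stromal-like levels, Tbx5, Hoxa11os, Hoxc11, Hoxd11, Hoxa13, Hoxd13, Meis1 and the 3 genes most like each member. Hoxa7, Hoxb7, Hoxc8 and the levels of other genes outside stromal-like cells were added after values were seen. Positions and sequences come from GENCODE vM21 (GRCm38), and a listed gene and some sequences are not reported here. Scripts ran on Python 3.11.15 with numpy 2.4.6, scipy 1.17.1, pandas 2.3.3 and matplotlib 3.10.9, and the ratio step was tested on simulated counts.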

Additional observations from a re-analysis of the deposited data

Results flagged for a closer look

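The direction of the Prrx1 ratio between the diets was opposite in 2 stromal-like subclusters, and this difference was not tested. In the Tagln and Scg3 high cells it was, as log2 of HFD over ND, 0.50 (0.24 to 0.78), from 162 and 383 UMIs (413 and 586 UPM). In the Ngp and Camp high cells it was -0.46 (-0.77 to -0.17), from 252 and 151 UMIs (366 and 265 UPM). The latter subcluster has 6 neutrophil markers among its 10 leading genes, and both intervals cover counting error only. Over all stromal-like cells the ratio was 0.00.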

How the results depend on the processing

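No paired analysis was possible because the matrix columns carry no replicate numbers, and for the same reason no replicate could be left out. Of the summary values 64 of 70 stayed within the limits set for no change, and so did 131 of 133 log2 ratios and 912 of 980 levels. Not every alternative could move a value. Minimums of 5 and of 50 UMIs leave the log2 ratio of a gene as it was. Resolution 0.25 gave the same stromal-like UMI totals as the main setting (4839760 in ND and 7063607 in HFD). These counts therefore overstate how far the values were tried. The 1 member past 1.5-fold, Hoxa11, kept its sign in 15 of 15 alternatives, as did Hoxa9, Hoxc9 and Pitx1, but ratios near 0 changed sign: Prrx1 kept it in 9 of 15 (-0.05 to 0.01), Hoxc10 in 12 of 15 (-0.13 to 0.08), Hoxa10 in 14 of 15, Tbx4 in 12 of 14 (-0.07 to 0.15) and Hoxd9 in 13 of 14 (-0.65 to 0.04). The count of members past 1.5-fold between diets was 1, became 0 when cells were thinned to 2000 UMIs, which leaves fewer counts, and 2 (Hoxa11 and Hoxd9) with the mean over cells of the level in each cell. The summed level in ND stromal-like cells was 746 and became 903 with mitochondrial, ribosomal, hemoglobin and immediate-early genes out of the denominator and 794 with the mean over cells. In HFD it was 732 and became 875 with that denominator and 755 without the Ngp and Camp high subcluster, an alternative chosen after seeing the data. Over 15 alternatives the Hoxa11 log2 ratio ran from -1.05 to -0.55 and that of Pitx1 from -0.41 to -0.23. Depth left Hoxd10, on 14 stromal-like UMIs over both libraries, without a ratio.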
